A study of Papio anubis with 40 samples.

Results

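The 5 rows described here hold the mature microRNAs of the miR-23, miR-27 and miR-24 clusters in plasma of olive baboons (Papio anubis): miR-23a-3p/23b-3p, miR-27a-3p/27b-3p, miR-24-3p, miR-24-1-5p and miR-24-2-5p. They were taken by name from 2731 rows of microRNA counts, and 3 of the 5 (miR-23a-3p/23b-3p, miR-27a-3p/27b-3p and miR-24-3p) were among the 318 rows counted often enough to be tested. Plasma of 8 baboons was sampled at 5 times, before inoculation (month 0) and 3, 6, 9 and 15 months after menstrual tissue was placed in the peritoneal cavity to induce endometriosis, which gives 8 libraries a month and 40 in all. Every sample was 0.5 mL of plasma labelled as given no treatment, while the design text of the series speaks of serum. The labels used here give no strain, age or allele. All 8 baboons were inoculated, so time since inoculation and the ageing of the animals cannot be told apart. The rows were selected on measured values of these same libraries: their levels by month, and the presence of miR-24-3p by library, were known when they were chosen. Levels and month comparisons are therefore given as a description, and nothing is read from the calls of members by month.

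In human and mouse, a pair of gene clusters each encode 1 miR-23, 1 miR-27 and 1 miR-24 on a single primary transcript. The cluster of miR-23a, miR-27a and miR-24-2 stands alone, and that of miR-23b, miR-27b and miR-24-1 lies in an intron of AOPEP. The a and b forms share a seed, the stretch that pairs with target messages, and differ little elsewhere. Both miR-24 hairpins give the same mature miR-24-3p, and only their opposite arms, miR-24-1-5p and miR-24-2-5p, tell the hairpins apart. The clusters are known for their part in blood vessel growth in endothelial cells, where Sprouty2 and Sema6A are targets of miR-23 and miR-27 in mice, and for control of fat cell and T cell development. In plasma, miR-23a-3p serves as a stable partner of the red cell microRNA miR-451a in an index of red cell lysis. The joined rows cannot be divided between the a and b forms.

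Total counts ran from 696873 to 5824111 per library, with a median of 1629264.5. Levels are given as TMM-scaled CPM. Here each library's total is adjusted by the trimmed mean of M values before counts are divided by it, so that a large sum of rows can pass the unadjusted total. The adjustment was 0.358 for the month 9 library of PA8001, farthest from 1 of the 40; leaving that library out changed no call of a member. No cell of the table holds a count of 1 and the smallest count above 0 is 2, so a listed 0 need not mean that no molecule was read. A count of 0 allows up to 3 counts, and this covers counting error only. The libraries of 1 baboon are separate bleeds. In plasma, fewer cells of a type that release a microRNA and less microRNA released per cell cannot be told apart.

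miR-23a-3p/23b-3p was counted in all 40 libraries, with 195498 counts in all, or 0.257% of every count. Its level averaged 1840 ± 1475 CPM (SD, n = 40), which ranks it 36th by mean level, and ran from 299.6 to 7063 CPM with a median of 1419 CPM. miR-27a-3p/27b-3p was also counted in all 40, with 78442 counts and 748.8 ± 520.5 CPM, from 258.1 to 3465 CPM, and ranks 63rd. Neither row was near the limit of detection in any library.

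By month, miR-23a-3p/23b-3p had a lowest, median and highest level of 337, 1189 and 3381 CPM at month 0, and of 559.9, 1486 and 4586 CPM at month 3. At month 6 these were 565.6, 1432 and 7063 CPM, at month 9 they were 633.9, 1171 and 4510 CPM, and at month 15 they were 299.6, 1811 and 5293 CPM. The ranges of all 5 months overlap, and the spread between baboons within a month is larger than any step between months. The mean was 2153 ± 1482 CPM at month 15 and 1497 ± 955 CPM at month 0 (SD, n = 8 each).

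**Figure D1:**
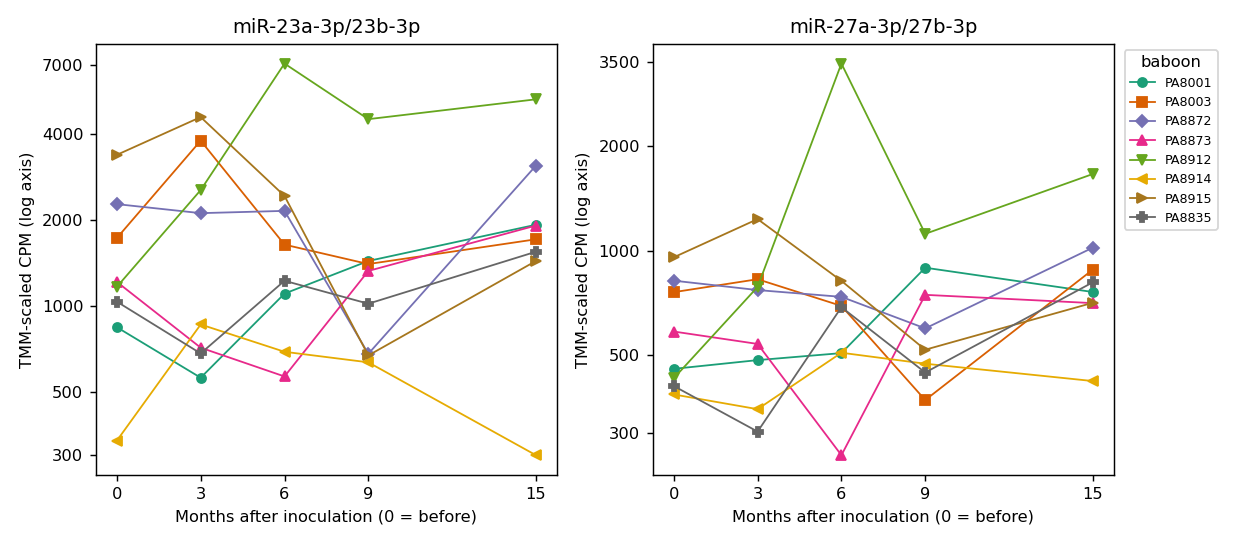
Level of miR-23a-3p/23b-3p (left) and miR-27a-3p/27b-3p (right) by month, with 1 line and marker for each of the 8 baboons; the y axes are TMM-scaled CPM on a log scale. PA8912 climbs to 7063 and 3465 CPM at month 6, and the lines of the other baboons cross; from month 9 to month 15 miR-23a-3p/23b-3p went up in 7 of 8 baboons and miR-27a-3p/27b-3p in 5 of 8.

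miR-27a-3p/27b-3p had a lowest, median and highest level of 386.2, 521.9 and 958.8 CPM at month 0, and of 301.9, 655.7 and 1235 CPM at month 3. At month 6 they were 258.1, 691.8 and 3465 CPM, at month 9 they were 372.1, 559 and 1120 CPM, and at month 15 they were 422, 787.1 and 1666 CPM. The ranges of all 5 months overlap for this row too. Its mean was 873.2 ± 363.5 CPM at month 15 and 601.2 ± 218.9 CPM at month 0 (SD, n = 8 each).

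Each month was set against month 0 within baboons, in a single fit of all 318 rows by edgeR's quasi-likelihood test with month and baboon as terms. For miR-23a-3p/23b-3p the log2 change was 0.31 (SE 0.368) at month 3, 0.27 (SE 0.370) at month 6, -0.02 (SE 0.373) at month 9 and 0.46 (SE 0.369) at month 15. For miR-27a-3p/27b-3p it was 0.06 (SE 0.283), 0.39 (SE 0.291), 0.08 (SE 0.286) and 0.46 (SE 0.285) at the same months. The median log2 change of all 318 rows was 0.08, 0.10, 0.05 and 0.11, and that of month 15 was 0.001 with DESeq2 size factors; the members' values are to be read relative to these medians. The mean of the 4 later months against month 0 gave a log2 change of 0.26 (SE 0.296) for miR-23a-3p/23b-3p and 0.25 (SE 0.229) for miR-27a-3p/27b-3p. Without PA8912 these means were 0.04 (SE 0.277) and 0.04 (SE 0.178), and the month 6 changes were -0.09 for miR-23a-3p/23b-3p and -0.10 for miR-27a-3p/27b-3p, so the positive month 6 values and most of the means came with this 1 animal. Without it the month 15 changes were 0.29 and 0.35. Months 9 and 15 against months 3 and 6 gave -0.08 (SE 0.265) and 0.05 (SE 0.202).

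**Figure D2:**
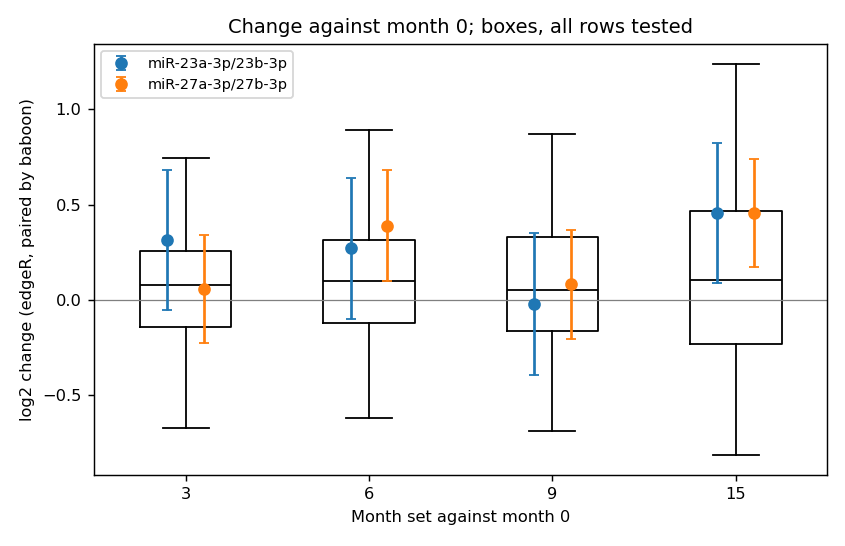
Log2 change against month 0 by edgeR, paired by baboon, of miR-23a-3p/23b-3p and miR-27a-3p/27b-3p (points, with bars of 1 SE) beside all 318 rows tested (boxes, median and quartiles; whiskers, 5th to 95th percentile). The points lie between -0.02 and 0.46, inside the whiskers at every month.

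By edgeR, 0 of the 3 tested members passed an adjusted p of 0.05 in any of these month comparisons, 0 had an unadjusted p under 0.05, and limma-voom called 0 as well. Over the whole table edgeR called 0% of rows at months 3, 6 and 9, with 5, 11 and 11 rows under an unadjusted p of 0.05. It called 4.09% at month 15, 0.314% for the mean of the later months, 0.943% for any month and 0% for late against early. DESeq2 called 1 member, miR-24-3p, at month 6 (0.314% of rows called), at month 9 (0.314%) and for the mean of the later months (0.629%). It called 0 members at month 3 (0.314%), at month 15 (5.66%), for any month (3.29%) and for late against early (0.629%). Without the low-count filter edgeR called 1 member, again miR-24-3p, at month 3 (0.29%), month 6 (0.145%), month 9 (0.29%), for the mean (0.29%) and for any month (2.18%), and 0 at month 15 (1.31%) and for late against early (0.435%). miR-24-3p was the only row called by DESeq2 at months 6 and 9, and by edgeR without the filter at month 6. The members were selected on the same libraries, so nothing is read from these counts.

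Single animals moved in opposite directions. The change of miR-23a-3p/23b-3p from month 0 was positive in 4 of 8 baboons at months 3, 6 and 9 and in 5 of 8 at month 15. At month 15 its difference in log2 CPM ran from -1.24 in PA8915 to 2.18 in PA8912, with a mean of 0.46 ± 1.00 (SD, n = 8). At month 9 it ran from -2.33 in PA8915 to 1.95 in PA8912. miR-27a-3p/27b-3p was higher in 4 of 8 baboons at months 3 and 6, in 5 of 8 at month 9 and in 7 of 8 at month 15. At month 15 its mean difference in log2 CPM was 0.52 ± 0.72, with PA8915 alone lower, by -0.43.

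Baboon took a larger share of the spread than month in both rows, over 7 and 4 degrees of freedom. Of the spread of miR-23a-3p/23b-3p in log2 CPM, 55.6% lay between baboons, 3.61% between months and 40.8% in the rest. For miR-27a-3p/27b-3p these shares were 40.5%, 7.91% and 51.6%, and the medians over the 318 rows were 31.7%, 7.38% and 58.6%. The baboon term of the fit, which is balanced against month, passed for both rows by edgeR (adjusted p = 0.000633 for miR-23a-3p/23b-3p and 0.00717 for miR-27a-3p/27b-3p). Both rows were chosen with earlier results of these data known, so these p-values are given as a description. Differences between baboons were common in the table: 103 of 318 rows, 32.4%, passed this test by edgeR, 47.7% by DESeq2 and 17.1% by edgeR without the low-count filter. The same 2 members passed in these fits, and without the filter miR-24-3p did too, as 3 of 5 members. With the filter miR-24-3p did not pass by edgeR, and since its presence by library was known when it was chosen, nothing is read from either outcome. Across the 17 alternatives the adjusted p ran from 1.71e-12 to 0.0228 for miR-23a-3p/23b-3p and from 0.000243 to 0.0994 for miR-27a-3p/27b-3p. The highest value of each came without PA8914, and without it miR-27a-3p/27b-3p no longer passed. The labels number the libraries in blocks, 1 animal after another, so library order and animal cannot be told apart.

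miR-23a-3p/23b-3p was highest in PA8912, at 1166, 2545, 7063, 4510 and 5293 CPM at months 0, 3, 6, 9 and 15. PA8915 had 3381, 4586, 2427, 670.1 and 1436 CPM at the same months. These 2 animals changed places: PA8915 was the highest of the 8 at months 0 and 3, and PA8912 at months 6, 9 and 15.

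PA8003 had 1728, 3792, 1639, 1401 and 1711 CPM of miR-23a-3p/23b-3p at months 0 to 15. PA8872 had 2272, 2112, 2152, 678.9 and 3100.2 CPM. PA8001 had 842, 559.9, 1104, 1436 and 1924 CPM. PA8003, PA8872 and PA8915 had their lowest level at month 9, PA8001 and PA8835 at month 3, PA8873 at month 6, PA8912 at month 0 and PA8914 at month 15. PA8835 had 1034, 681, 1224, 1017 and 1548 CPM, and PA8873 had 1213, 713, 565.6, 1325 and 1912 CPM. PA8914 was lowest, with 337, 860.4, 690.2, 633.9 and 299.6 CPM, and did not reach 1000 CPM in any library.

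**Figure D3:**
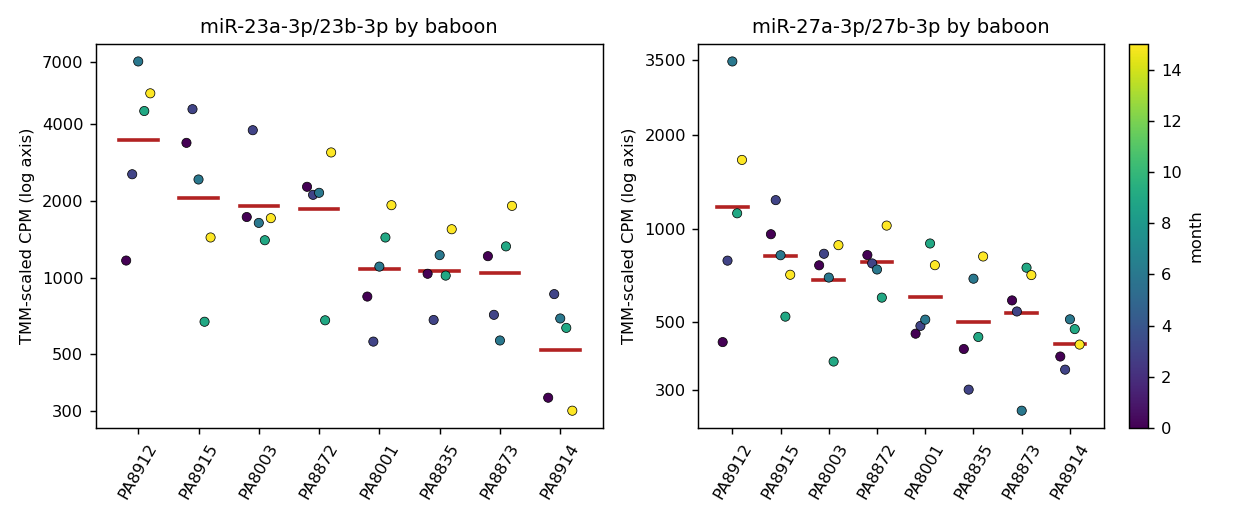
Level of miR-23a-3p/23b-3p (left) and miR-27a-3p/27b-3p (right) in the 5 libraries of each baboon, coloured by month, with the geometric mean as a red line; y axes are TMM-scaled CPM on a log scale. Baboons run from the highest to the lowest geometric mean of miR-23a-3p/23b-3p, 3467 CPM in PA8912 to 521 CPM in PA8914.

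The geometric mean of miR-23a-3p/23b-3p was 3467 CPM in PA8912 and 521 CPM in PA8914, a 6.65-fold range. Between them came PA8915, PA8003 and PA8872 (2052, 1916 and 1852 CPM) and then PA8001, PA8835 and PA8873 (1076, 1064 and 1045 CPM). In this order, neighbours differed by less than the larger of their SDs, except PA8914, which lay 1.00 below PA8873 in log2 CPM against an SD of 0.71. For miR-27a-3p/27b-3p the geometric mean ran from 1171 CPM in PA8912 to 425 CPM in PA8914, 2.75-fold, and no neighbours in the order differed by more than their SD.

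miR-27a-3p/27b-3p in PA8912 was 430 CPM at month 0, then 788, 3465, 1120.3 and 1666 CPM at months 3, 6, 9 and 15. In PA8915 it was 959, 1236, 820.1, 520 and 709 CPM, and in PA8914 it was 386, 350.3, 509, 473 and 422 CPM. PA8912 therefore held the highest value of this row at months 6, 9 and 15, and PA8915 at months 0 and 3, the same animals as for miR-23a-3p/23b-3p. The month 6 library of PA8912 was also the deepest of the 40, with 5824111 counts, of which miR-23a-3p/23b-3p had 56627 and miR-27a-3p/27b-3p 27782.

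Markers of other cells also differed between baboons. All 6 hepatocyte markers were counted, and their summed level had a median of 11490 CPM in PA8872, 13690 CPM in PA8912 and 13740 CPM in PA8915, against 105000 CPM in PA8914, 165500 CPM in PA8003 and 675200 CPM in PA8001. All 6 red cell markers were counted, and their sum had a median of 203400 CPM in PA8912 (161700 to 313900 CPM) and of 542600 CPM in PA8914 (485500 to 668100 CPM). The lowest median was 194600 CPM in PA8001, and the remaining baboons had 248200 to 317800 CPM. Most of this sum was miR-16-5p (mean 211600 CPM) and miR-486-5p (99520 CPM), while miR-451a averaged 1545 CPM. The 8 platelet markers summed to a median of 78240 CPM in PA8912 and 113200 CPM in PA8914, and the 4 endothelial ones to 74350 and 77120 CPM. Over all baboons the platelet medians ran from 72170 CPM in PA8003 to 113200 CPM in PA8914. The endothelial medians ran from 64500 CPM in PA8003 to 125800 CPM in PA8872. These sums too rest on few rows. Nearly all of the hepatocyte sum was miR-122-5p (mean 176800 CPM), with miR-483-5p next at 424.1 CPM. The endothelial sum was mostly miR-126-3p (60530 CPM) and miR-126-5p (29500 CPM), beside 137.4 CPM of miR-221-3p and 12.6 CPM of miR-222-3p. miR-126-3p is also in the platelet sum, with miR-191-5p (26490 CPM) next, so these 2 sums are not separate measures. Of the tested members the baboon term called 5 of 5 hepatocyte, 4 of 4 red cell, 2 of 8 platelet and 1 of 4 endothelial rows, beside 32.4% of the table. The part of these cell sources in the levels of the clusters was not tested.

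The rows of miR-23 and miR-27 varied together. Over the 40 libraries their log2 CPM had a Spearman rho of 0.868, and each was the row most like the other among the 317 others. The next most like miR-23a-3p/23b-3p were miR-30b-5p/30c-5p (rho 0.849), miR-331-3p (0.802), miR-484 (0.728) and miR-532-5p (0.699). For miR-27a-3p/27b-3p they were miR-331-3p (0.810), miR-30b-5p/30c-5p (0.760), miR-574-3p (0.711) and miR-532-5p (0.692). With baboon and month means taken out, the rho of miR-23 with miR-27 was 0.764, and miR-331-3p (0.849), miR-30b-5p/30c-5p (0.834) and miR-574-3p (0.791) stood above it for miR-23. In what was left of miR-27a-3p/27b-3p, miR-505-3p (0.721) and the myeloid and platelet microRNA miR-223-3p (0.688) followed miR-23. These values are a description: the points share libraries, scaling and depth, and 5 of them come from each animal. With library totals in place of TMM, 3 of the 5 most like rows were again among the 5 for each.

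**Figure D4:**
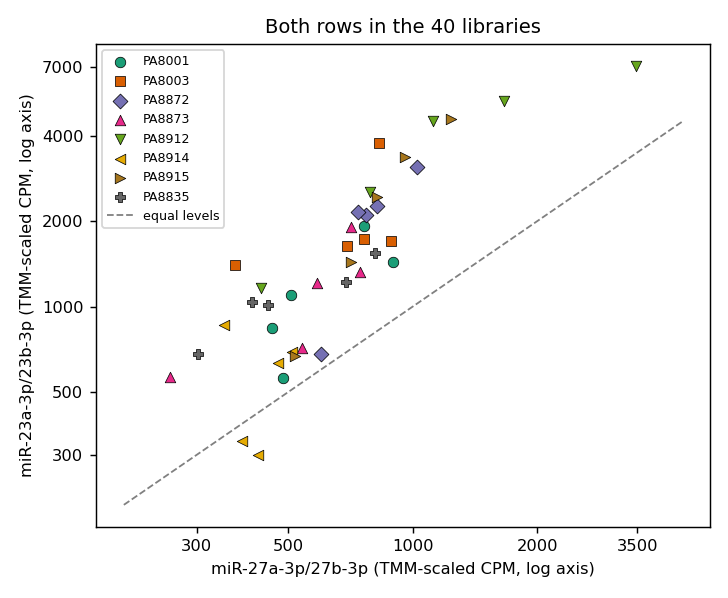
Level of miR-23a-3p/23b-3p (y axis) against miR-27a-3p/27b-3p (x axis) in each of the 40 libraries, marked by baboon, both in TMM-scaled CPM on log axes; the dashed line marks equal levels. All libraries lie above the line except 2 of PA8914.

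miR-23a-3p/23b-3p was counted more than miR-27a-3p/27b-3p in 38 of 40 libraries, with a geometric mean ratio of 2.15 (0.711 to 4.57). Ligation and amplification differ between sequences, so a ratio of counts is not a ratio of molecules. The log2 ratio averaged 1.06 ± 0.69 at month 15 and 1.12 ± 0.60 at month 0 (SD, n = 8 each). By baboon the geometric mean ratio ran from 1.22 in PA8914 to 2.96 in PA8912. The 2 libraries below 1 were those of PA8914 at month 0, with 589 counts of miR-23 and 675 of miR-27, and at month 15, with 590 and 831. PA8914 was thus lowest both in the level of miR-23 and in its ratio to miR-27.

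miR-24-3p was either counted at a high level or listed at 0, with nothing between. It was at 0 in 27 libraries and at 1597 to 43201 counts in the other 13, where its level was 1408 to 5388 CPM and its rank by count lay between 22nd and 39th of all rows. A count of 0 allows up to 0.725 to 3.97 CPM in the 27 libraries, depending on their depth, by counting error alone. Whether these zeros arose in counting or filtering before deposit was not tested, so they need not mean absence from plasma. The total of those 27 libraries ran from 696873 to 5243779 counts and that of the 13 from 1065018 to 5824111, so the ranges of depth overlap.

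**Figure D5:**
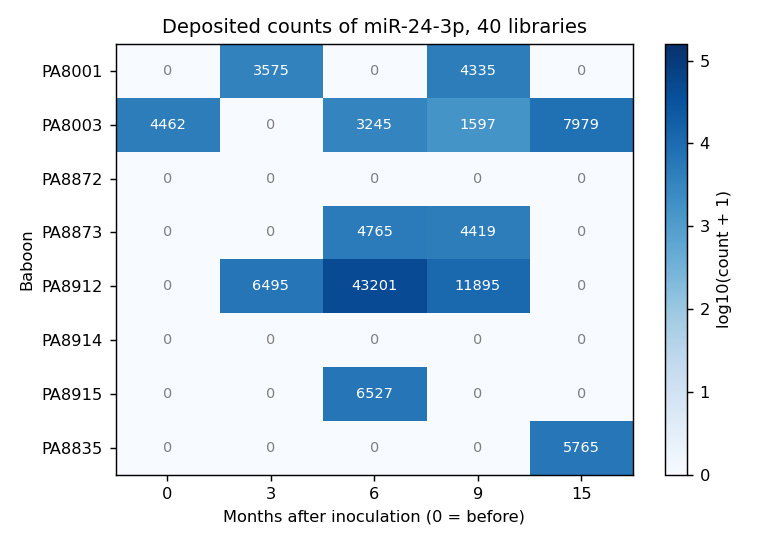
Deposited counts of miR-24-3p in the 40 libraries, 1 row for each baboon and 1 column for each month, coloured by log10 of the count plus 1. The 13 filled cells hold 1597 to 43201 counts, and the other 27 hold 0.

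By month, miR-24-3p was counted in 1 of 8 libraries at month 0, 2 at month 3, 4 at month 6, 4 at month 9 and 2 at month 15. The library at month 0 was that of PA8003, with 4462 counts. PA8003 held it in 4 of its 5 libraries, with 3245 counts at month 6, 1597 at month 9 and 7979 at month 15 but 0 at month 3. PA8912 held 6495, 43201 and 11895 counts at months 3, 6 and 9 and 0 at months 0 and 15. PA8001 held 3575 counts at month 3 and 4335 at month 9, and PA8873 held 4765 at month 6 and 4419 at month 9. PA8915 held 6527 counts at month 6 alone and PA8835 held 5765 at month 15 alone. PA8872 and PA8914 had 0 in all 5 libraries.

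miR-24-3p was at 0 beside some of the highest counts of its cluster partners. PA8912 at month 15 had 21912 counts of miR-23a-3p/23b-3p and 6897 of miR-27a-3p/27b-3p beside 0 of miR-24-3p. PA8915 at month 3 had 13980 and 3766 counts of these rows, and PA8872 at month 15 had 8081 and 2665, again beside 0. In the other direction, PA8001 at month 3 had only 545 and 472 counts of the partners beside 3575 of miR-24-3p. In its 13 libraries miR-24-3p had 1.56 to 10.8 counts for each count of miR-27a-3p/27b-3p, with a median of 4.12, and exceeded miR-23a-3p/23b-3p in 11 of them. A mean or fold between months has no reading as a level for such a row, so none is given.

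Among the 689 rows with a count, 4 were at 0 in at least 5 libraries and at 30 counts or more in every other: miR-24-3p, miR-326-3p, miR-652-3p and miR-760. miR-652-3p was at 0 in 5 libraries and at 361 to 8957 counts in the other 35, of which 11 held miR-24-3p. miR-760 was at 0 in 13 and at 31 to 672 counts in 27 of the 40 libraries. These 27 include all 13 libraries with miR-24-3p (100% of the libraries of miR-24-3p and 48.1% of those of miR-760). miR-326-3p was found in 10 libraries, at 36 to 304 counts, of which 4 held miR-24-3p. The rows whose levels went most with the presence of miR-24-3p over 40 libraries were miR-199b-5p (rho 0.525), let-7b-3p (0.502) and miR-423-3p (0.488), and those most against it were miR-26a-5p (-0.58), miR-155-5p (-0.562) and miR-26b-5p (-0.525). These are descriptions of the 40 libraries.

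The opposite arms of miR-24 were rare. miR-24-2-5p had 74 counts in all, 2 to 11 in each of 13 libraries and 0 in 27. Of those 13 libraries 6 also held miR-24-3p, 46.2% of each set, and in 7 it was counted beside 0 of miR-24-3p. PA8912 at month 15, for one, had 11 counts of miR-24-2-5p, PA8914 at month 15 had 7, and PA8873 at month 0 had 7. By month it was counted in 1 library at month 0, 2 at month 3, 4 at month 6, 2 at month 9 and 4 at month 15, at counts too low to compare. miR-24-1-5p was counted in 1 library, at 3 counts in PA8915 at month 9.

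The other arms of the clusters were rare too, apart from miR-27b-5p. miR-27b-5p had 1209 counts and was found in 39 of 40 libraries at up to 85 counts (mean 16.9 CPM). It was the only other arm that could be tested, and its log2 change was 0.42, 0.43, 0.79 and 0.29 at months 3, 6, 9 and 15 (SE 0.458 to 0.476), with no call. miR-23a-5p had 185 counts in 19 libraries, miR-27a-5p 67 in 15 and miR-23b-5p 29 in 8. miR-3074-5p, whose human hairpin overlaps that of miR-24-1 on the opposite strand, had 45 counts in 10 libraries, and miR-3074-3p had 0 in all. miR-23c, which shares the seed of miR-23a, was also at 0 throughout. miR-128-3p, whose seed overlaps that of miR-27, was counted in all 40 libraries (mean 493.1 CPM), with log2 changes of 0.005, 0.23, -0.08 and 0.17 (SE 0.155 to 0.156) and no call.

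Other microRNAs of endothelium and vessel growth were set beside the clusters, and all 12 on the list were tested. None passed by edgeR at months 3, 6 or 9. At month 15, 2 of 12 passed and both were higher, beside 4.09% of the table. miR-210-3p, which hypoxia induces, had a log2 change of 1.34 (SE 0.239, adjusted p = 0.000958 by edgeR) and passed in 18 of 19 alternatives, failing with months 0 and 15 alone (adjusted p = 0.0571). miR-126-3p of endothelium and platelets had a log2 change of 0.72 (SE 0.213, adjusted p = 0.0448 by edgeR) and passed in 3 of 19, with adjusted p from 0.0356 to 0.305. Its call was lost with any baboon but PA8915 left out, without the month 9 library of PA8001 and under each other scaling. The median of the 12 was 0.45 at month 15, against 0.11 over all rows, and 8 of the 12 were above 0. Among those below 0 were miR-132-3p (-1.16, SE 0.971), the joined row of miR-378a-3p (-0.50, SE 0.317) and miR-10b-5p (-0.48, SE 0.344). The list was chosen with earlier results of these data known, so its calls and median are a description. miR-221-3p, which restrains endothelial growth, had a log2 change of 0.86 (SE 0.276) and miR-92a-3p, an inhibitor of vessel growth, -0.14 (SE 0.253), and neither passed. At month 15 no red cell (4 tested) or hepatocyte (5 tested) marker passed, and 1 of 8 platelet and 1 of 4 endothelial markers did, in each case miR-126-3p, with the same limits. At months 3, 6 and 9 no marker of these lists passed.

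Beside the clusters' levels, the lysis index formed from miR-451a and miR-23a-3p/23b-3p, as the difference of their log2 CPM, averaged -0.82 ± 1.47 at month 15 and 0.01 ± 1.06 at month 0 (SD, n = 8 each). It ran from -3.43 in PA8872 at month 15, where miR-23a-3p/23b-3p had 3100.2 CPM, to 1.49 in PA8914 at month 0, where it had 337 CPM. Since miR-23a-3p/23b-3p is a term of the index, the index is not an independent measure of it.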

How the data were processed

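Small RNA of 40 plasma samples was sequenced. The deposited values are raw whole-number counts, 1 row for each mature microRNA or joined name. Libraries were made by sequential adapter ligation with molecular identifiers added during cDNA synthesis, and run on an Illumina NovaSeq X, per the labels' protocols. R 4.5.0, edgeR and limma are named in the submitters' processing notes. The aligner, the microRNA database and whether identifiers or reads were counted are nowhere stated in the labels read here.

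Samples were grouped by the month label and blocked by baboon. Libraries of a baboon deviated together from their month means (mean correlation across rows 0.208, and -0.051 between different baboons). Taking out month means by itself pulls the value between different baboons below 0, so it is no independent comparison. Rows were kept with filterByExpr (minimum count 10, minimum total 15), which left 318 rows with 99.98% of counts. Counts were scaled with TMM (factors 0.358 to 1.42) and fitted with the quasi-likelihood test of edgeR 4.0.16 (limma 3.58.1, DESeq2 1.42.0, R 4.3.3), with two-sided p-values adjusted by Benjamini-Hochberg over all rows tested and a threshold of 0.05. The fit was also run on counts simulated with changes at month 15 alone, and no result here rests on that run. Log2 CPM used a prior count of 2.

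The members, lists and naming rule were chosen with earlier results of these data known. Named are the 5 members, the 5 rows of highest Spearman rho with each, all-or-none rows, other arms, seed relatives, endothelial and vessel growth microRNAs, and red cell, platelet, hepatocyte and endothelial markers; PA8912 and PA8914 were named after their values were seen. Total counts ran from 696873 to 5824111. Alternatives were other scalings, tools, filters and covariates, a fit without the block, single baboons or 1 library left out, and 2 months alone. Those applied to levels, spread and the endothelial list were chosen after seeing the data. So were the likeness without PA8912 and the ratio with library totals.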

Additional observations from a re-analysis of the deposited data

Results flagged for a closer look

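Within the 8 libraries of a month, 26 sets of values were examined for a single library standing apart, and 8 were. Chance alone gives about 1 in 20 among rows not chosen on these values, which does not hold here, and the 3 miR-24 cases were bound to stand apart because the other 7 libraries held 0 counts. miR-23a-3p/23b-3p in PA8912 stood at a log2 CPM of 12.14 at month 9, above the next baboon at 10.49. The same row in PA8914 stood at 8.23 at month 15, below the next at 10.49. miR-27a-3p/27b-3p in PA8912 stood at 11.76 at month 6, where the next was 9.68. The log2 ratio of miR-23 to miR-27 in PA8914 was -0.2 at month 0 and -0.49 at month 15, where the nearest other baboons had 0.88 and 0.93. miR-24-3p in PA8003 at month 0 had a log2 CPM of 11.71 while the other 7 libraries held 0 counts. miR-24-2-5p in PA8873 at month 0, at 3.32, and miR-24-1-5p in PA8915 at month 9, at 1.26, stood apart in the same way, on 7 and 3 counts.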

How the results depend on the processing

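Calls of members by month changed only for miR-24-3p. With no low-count filter edgeR called 1 member, miR-24-3p, at months 3, 6 and 9, for the mean of the later months and for any month (0.29%, 0.145%, 0.29%, 0.29% and 2.18% of rows), and DESeq2 called 1, miR-24-3p, at months 6 and 9 and for the mean of the later months, against 0 by edgeR with the filter; the cause was not tested. Leaving out 1 baboon in turn gave 1 to 2 members called for baboon differences, 1 without PA8914. With no replicate block 0 members were called in any month comparison, so the block changed no call. The change of miR-23a-3p/23b-3p at month 15 ran from 0.10 to 0.69 over 19 alternatives and that of miR-27a-3p/27b-3p from 0.26 to 0.58, all positive. Signs turned elsewhere: without PA8912 the month 6 changes were -0.09 and -0.10, against 0.27 and 0.39 with it, and the means of the later months were 0.04 each. At month 9 the first was negative in 15 of 19, and the second was positive in 11 of 19 at month 3 and in 13 of 19 at month 9. Mean levels were 2096 and 828 CPM with library totals alone, the share of miR-23a-3p/23b-3p held by baboon was 49.3% without PA8912 (chosen after seeing the data), and 2 rows were all-or-none at 100 counts. The 5p arms of miR-24 were at low counts throughout, and the part of depth in this was not tested. miR-24-2-5p had 7 counts in the shallowest library (PA8873 at month 0) and 5 in the deepest (PA8912 at month 6). Its highest counts, 11 and 8, were in PA8912 at months 15 and 9, with totals of 3923510 and 2323178. It was at 0 both in PA8835 at month 6 (710943 counts in all) and in PA8914 at month 3 (5243779).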
